A study of Mus musculus with 8 samples.

Results

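Ribosome footprints of 239 UCSC known-gene IDs, out of 20154 in the deposited table, were concentrated in the suspended haematopoietic cells of mouse bone marrow cultures. They were chosen by their level in CPM, an ID's count per 1000000 counts of its library. A member had a mean of 20 CPM or more over the 4 suspension libraries and at least 4 times the mean of the 4 stroma libraries, and its lowest suspension value lay above its highest stroma value. The difference between suspension and stroma therefore chose the members and is described here without a test.

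The 8 libraries came from C57BL/6 mice at postnatal day 8, in 4 groups of 2. The groups were suspension cells and attached stroma cells from wild-type mice, and the same fractions from mice carrying Dnmt2-/-. Mononuclear marrow cells of all groups were grown with thrombopoietin at 5 ng/ml and FLT3 ligand and stem cell factor at 10 ng/ml. The floating cells were then collected apart from the attached layer. For all 8 libraries the labels also give cycloheximide at 100 ug/ml. Totals per library lay between 1713729 and 4025780 counts. The knockout stroma columns share one header, so they carry no replicate number and are called a and b here. Whether replicates are separate animals or cultures is not stated, so the p-values rest on a spread between libraries that may be technical.

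Many haematopoietic cells float in such cultures, while fibroblast-like cells attach, as do macrophages, which are haematopoietic too. Stem cell factor acts through the receptor KIT on progenitors and mast cells, FLT3 ligand supports lymphoid and dendritic progenitors, and thrombopoietin supports stem cells and megakaryocytes. Dnmt2 (gene symbol Trdmt1) methylates a cytosine in the anticodon loop of certain tRNAs. A footprint is the stretch of mRNA that a translating ribosome shields from nuclease, so a footprint count rises with both the amount of an mRNA and its translation. In a mixed culture, fewer cells of a type and less RNA per cell cannot be told apart. The table gives IDs without gene names, and the reference gene table matched 0 of the 20154. The haematopoietic label was therefore not checked against marker genes, and members are described by level, rank and pattern.

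The members spanned a wide range of levels. Their mean suspension level had a median of 95.7 CPM and reached 12152 CPM. In all, 117 members lay at 100 CPM or more and 25 at 1000 CPM or more. Mean stroma levels had a median of 15.2 CPM and ran from 0.559 to 2320 CPM. The ratio of the means had a median of 6.02, with quartiles at 4.78 and 8.34. A ratio of 10 or more was shown by 37 members, and 14 reached 16. The larger ratios were commoner among scarce members, with 28 of the 122 members under 100 CPM at a ratio of 10 or more, against 2 of the 25 at 1000 CPM or more. Small stroma counts make a ratio less certain, and 24 members had under 30 counts over all stroma libraries.

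**Figure D1:**
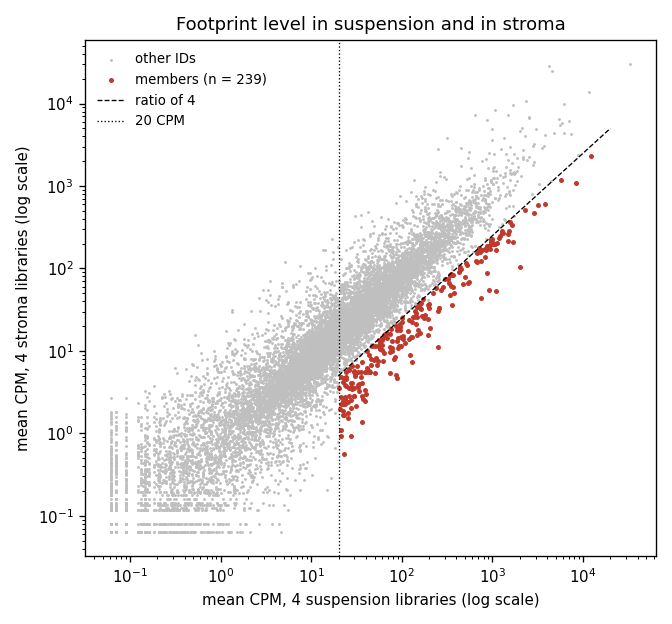
Mean CPM of each ID over the 4 suspension libraries (horizontal, log scale) and over the 4 stroma libraries (vertical, log scale), for IDs with a count in both. Red points are the 239 members, which lie right of the dotted line at 20 CPM and below the dashed line at a ratio of 4, and grey points are the other IDs.

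The thresholds fall within a continuous range of values. The member nearest the level threshold had a mean of 20.07 CPM, and the closest ID outside it 19.89. The closest ratios inside and outside were 4.004 and 3.999. Of the 5772 IDs at 20 CPM or more in suspension, 4.16% met the ratio condition and 33.5% had no overlap between the fractions, and these shares only restate the rule. A single ID met the level and the ratio but overlapped, with a lowest suspension value of 27.4 CPM and a highest stroma value of 68.1 CPM. For 219 members the lowest suspension value was more than 2 times the highest stroma value.

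The most abundant member, uc008qdd.1, stood at 10476 and 11227 CPM in wild-type suspension, with 15485 and 11421 CPM for the knockout. Stroma values were 2585 and 1993 CPM for wild type and 2414 and 2287 CPM for the knockout. All suspension libraries were thus far above all stroma libraries, with a ratio of 5.24, and this ID alone took 1.05% to 1.55% of the suspension counts. It was also among the clearly translated IDs of the stroma, where it held 0.199% to 0.259% of the counts.

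The second most abundant member differed more between libraries. It stood at 4266 and 13705 CPM in wild-type suspension replicates 1 and 2, and at 4164 and 10842 CPM in knockout suspension replicates 1 and 2. In stroma it lay between 935 and 1327 CPM. Both libraries numbered 2 were far above both numbered 1 in suspension, in wild type and knockout alike.

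The largest ratio belonged to uc008wmr.1, at 18.4 and 19.3 CPM in wild-type suspension, with 27.6 and 25.7 CPM for the knockout. In stroma it had 1 and 2 counts in wild type, 0 in knockout library a and 4 in library b, together 7 counts against 270 in suspension. The ratio of its mean CPM was 40.7. The ratio of its summed counts, scaled by the summed totals, was 35.6, with an exact 95% counting interval of 17.0 to 89.3. Such intervals cover counting error only, and the ID was picked for its ratio, which favours large values.

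A level of at least 1000 CPM with a ratio of at least 10 was reached by 2 members, described here for that reason. The first stood at 1301 and 2525 CPM in wild-type suspension, with 2008 and 2163 CPM for the knockout. In stroma it had 31.1 and 194 CPM in wild type, and 31.1 and 163 CPM in knockout libraries a and b. The second stood at 329 and 1723 CPM in wild-type suspension, at 549 and 1724 CPM in the knockout, and at 13.5, 100.4, 16.6 and 81.5 CPM in the same order of stroma libraries. For both, 1 stroma library of each genotype held several times as much as the other, at levels that were still below every suspension library.

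Together the members held 8.38% and 11.8% of the counts of wild-type suspension cells (10.1% ± 2.4, SD, n = 2). In suspension cells of the knockout they held 9.77% and 12.1% (10.9% ± 1.7, SD, n = 2). In stroma they held 1.85% ± 0.38 in wild type and 1.88% ± 0.38 in the knockout (SD, n = 2 each). The genotypes overlapped in suspension, where the gap between their means was smaller than either SD. These SDs include the difference between replicate numbers, and within each number the knockout library held the larger share. The 10 most abundant members took 37.96% to 45.9% of the members' suspension counts.

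**Figure D2:**
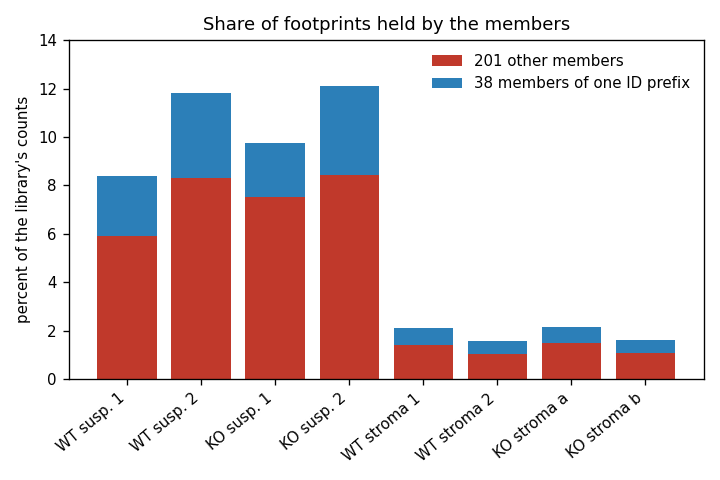
Percent of each library's counts held by the members, as stacked bars for the 8 libraries (WT wild type, KO knockout, susp. suspension). Suspension libraries reach 8.38% to 12.1% and stroma libraries 1.58% to 2.15%; the blue part is the 38 members whose IDs share their first 6 characters.

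The members' ratio of group means had a median of 5.48 in wild type and 6.26 in the knockout. With library sizes scaled by TMM (trimmed mean of M-values), the fitted log2 difference between suspension and stroma had a median over the members of 2.25 in wild type, from 1.34 to 4.93, and of 2.47 in the knockout, from 1.58 to 5.15. The median over all 10157 tested IDs was 0.03 and 0.04. Column totals in place of TMM moved the median of all tested IDs to 0.26 and 0.25. The choice of members used column totals, and with TMM-scaled sizes 183 of the 239 would have met it. Applied to the wild-type libraries alone, the rule took 227 IDs. In the knockout libraries, which that choice did not use, 197 of these 227 were at least 4 times higher in suspension, 227 were at least 2 times higher, and the median ratio was 5.98. Of the 5779 IDs at 20 CPM or more in wild-type suspension, 4.07% had a knockout suspension mean at least 4 times that of knockout stroma. The median knockout ratio over all 5779 was 1.21. The rule on knockout libraries alone took 255 IDs, of which 214 were at least 4 times higher in wild-type suspension than in wild-type stroma, against a background of 4.24%.

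Members differed between libraries by replicate number more than by genotype. In wild-type suspension the library numbered 2 was higher than that numbered 1 for 198 of the 239 members, with a median log2 difference of 0.60. In knockout suspension this held for 171 members, with a median of 0.42. For the 5772 IDs of 20 CPM or more the medians were -0.04 and -0.03. More than 2-fold differences in both genotypes were shown by 35 members toward number 2 and by 3 toward number 1, and none (0) went in opposite directions. The shares among all IDs of 20 CPM or more were 2.91% and 1.4%, and none (0) of those IDs went in opposite directions either. Pearson's r between the genotypes' log2 differences by number was 0.863 over the members and 0.854 over those IDs. What a replicate number stands for is not stated. Across members, Pearson's r of log2 CPM was 0.985 and 0.988 between the genotypes of one number in suspension, against 0.953 and 0.939 between the numbers of one genotype. These values describe 239 members that share libraries and are not independent replicates.

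**Figure D3:**
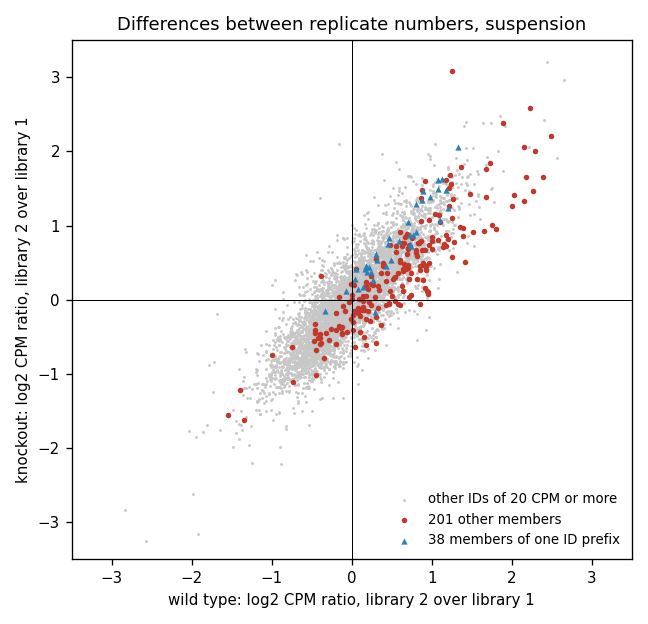
Log2 ratio of CPM between the suspension libraries numbered 2 and 1, in wild type (horizontal) and in the knockout (vertical); each point is an ID. Most members lie right of and above 0, with 165 higher in number 2 in both genotypes and 35 higher in number 1 in both, while the other IDs of 20 CPM or more (grey) spread around 0.

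The 35 members over 2-fold higher in number 2 held 1.09% of the counts in both suspension libraries numbered 1, 3.21% in wild-type replicate 2 and 2.91% in knockout replicate 2. Their ratios between the fractions ran from 4.00 to 29.5. In wild-type stroma, whose libraries did not enter that count, the library numbered 2 was higher for 21 of these 35 and for 39 of the 201 members without a 2-fold difference in both genotypes. The difference between these lists was not tested. Over all members the wild-type stroma libraries went the other way, with a median log2 difference between numbers 2 and 1 of -0.44. The share of counts fell with it, from 2.13% in wild-type stroma replicate 1 to 1.58% in replicate 2. Knockout stroma libraries a and b held 2.15% and 1.61%. Over the members, library a correlated with wild-type stroma replicate 1 at an r of 0.978 and with replicate 2 at 0.895, and library b with them at 0.920 and 0.977.

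**Figure D4:**
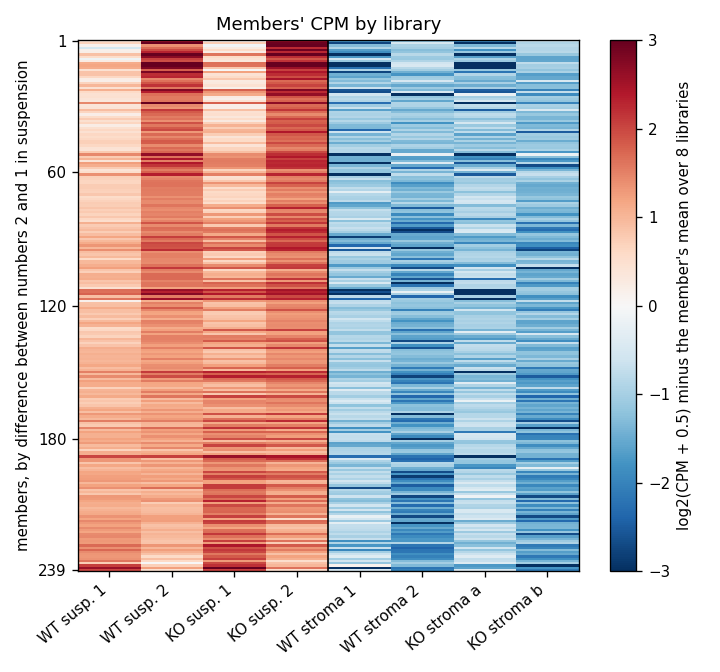
Log2(CPM + 0.5) of the 239 members (rows) in the 8 libraries (columns), as the difference from each member's own mean, with colours capped at 3 in either direction. Rows are ordered by the difference between numbers 2 and 1 in suspension, and the 4 suspension libraries are above the 4 stroma libraries in every row, as the rule requires.

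Members were often neighbours in the alphabetical order of IDs, a property the rule did not use. Of the 438 IDs directly beside a member in that order, 80 were members (18.3%). Members made up 1.19% of all IDs and 4.14% of those at 20 CPM or more in suspension. How many of the 438 reached that level is not given here. There were 26 runs of consecutive members, of which 5 held 6 or more. Where these IDs lie in the genome was not looked up, since no annotation of the table's IDs was used here. Near-identical gene copies can share reads, and how reads with several matches were counted is not given in the sources used here, so values within a run are uncertain. The groups below were picked after their values were seen and are descriptions.

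The largest group was 38 members whose IDs begin with uc007p, a prefix of 321 IDs in all, 105 of them at 20 CPM or more in suspension. Of the suspension counts they held 2.47% and 3.53% in wild type. With the knockout they held 2.26% and 3.70%. In stroma they held 0.530% to 0.717%. Their ratios lay in a narrow band, from 4.00 to 6.08, and their mean suspension levels between 65.0 and 1655 CPM. In suspension 35 of the 38 were higher in number 2 in both genotypes, as were 165 of all 239 members and 39.4% of the IDs of 20 CPM or more. In wild-type stroma 4 of the 38 were higher in number 2, against 61 of all members and 42.3% of those IDs.

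A run of 8 consecutive IDs showed the reverse order of numbers in suspension. Its summed level was 12269 and 9521 CPM in wild-type suspension replicates 1 and 2, and 14571 and 10476 CPM in the knockout. In stroma it was 2743 and 1414 CPM in wild type, and 2822 and 1808 CPM in knockout libraries a and b. None (0) of its members was higher in number 2 in both genotypes, and 6 of 8 were higher in number 1 in both, as were 43.9% of the IDs of 20 CPM or more.

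A run of 6 consecutive IDs had the steepest ratios among the 5 longest runs, from 9.87 to 22.7. Its summed level was 989 and 3248 CPM in wild-type suspension replicates 1 and 2, and 1312 and 2584 CPM in the knockout. In wild-type stroma it was 92.9 and 233 CPM, so here the library numbered 2 was higher in both fractions, for 6 of 6 members in stroma. In suspension, 5 of the 6 were higher in number 2 in both genotypes, and the remaining member had 290.1 and 114 CPM in wild type and 457 and 149 CPM in the knockout.

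Whether loss of Dnmt2 changed the members in suspension was tested by edgeR's quasi-likelihood test over all IDs. It called 0 of 239 members at an adjusted p under 0.05, and 0% of the 10157 tested IDs. At an unadjusted p under 0.05 there were 8 members, all higher in the knockout, and 0.63% of all tested IDs. DESeq2 and limma-voom called 0 members too, with 4 and 17 of them at that unadjusted level, against 0.177% and 0.729% of all tested IDs. The median log2 difference of the members was 0.19, against -0.00 over all tested IDs. Above 0 were 184 of 239 members and 49.4% of all tested IDs. The members' median fell to -0.03 without knockout replicate 2 and to -0.02 without wild-type replicate 1. It rose to 0.44 without knockout replicate 1 and to 0.63 without wild-type replicate 2. Leaving out any of these libraries left the replicate numbers unbalanced between the genotypes. Number and genotype cannot be told apart in these medians. For 69 of the 239 members the 95% interval of the difference lay within 2-fold in both directions, as it did for 56.7% of all tested IDs.

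The member with the lowest p among those higher in the knockout was uc007idj.2. It stood at 59.1 and 67.8 CPM in wild-type suspension and at 125 and 112 CPM in the knockout, so the genotypes did not overlap. The log2 difference was 0.92 ± 0.28 (SE), and edgeR gave it an adjusted p of 1.00. In stroma it had 10.2 and 8.83 CPM in wild type and 16.6 and 7.93 CPM in the knockout, which overlapped. The member with the lowest p among those lower in the knockout was uc008zos.2, at 51.4 and 83.5 CPM in wild-type suspension and 44.3 and 61.3 CPM in the knockout. These overlapped, and the log2 difference was -0.34 ± 0.31 (SE), again at an adjusted p of 1.00 from edgeR.

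Within one replicate number, most members were higher in the knockout suspension library. The fit that called none (0) of them held no term for the number. The knockout suspension library was higher in both numbers for 125 members and lower in both for 33, or 52.3% and 13.8%, against 21.8% and 32.7% of the IDs of 20 CPM or more. The median log2 difference was 0.32 for number 1 and 0.14 for number 2, against -0.03 for both over those IDs. More than 1.5-fold higher in both numbers were 25 members, and none (0) was as much lower, against 0.537% and 0.0347%. These 25 were 80.6% of the 31 IDs of that level with such a difference, and 10.5% of the members. Of the suspension counts these 25 held 0.234% and 0.257% in wild type, against 0.415% and 0.419% in the knockout. The most abundant of them stood at 1249 and 1271 CPM in wild type and at 2254 and 2026 CPM in the knockout. Without regard to number, both knockout libraries were above both wild-type libraries for 67 members and below them for 3, with backgrounds of 6.08% and 8.42%. No member differed by more than 2-fold in both numbers. The knockout suspension values entered the choice of members. Among the 227 IDs chosen on wild-type libraries alone, 104 were higher and 44 lower in the knockout in both numbers, and 19 and 1 by more than 1.5-fold.

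**Figure D5:**
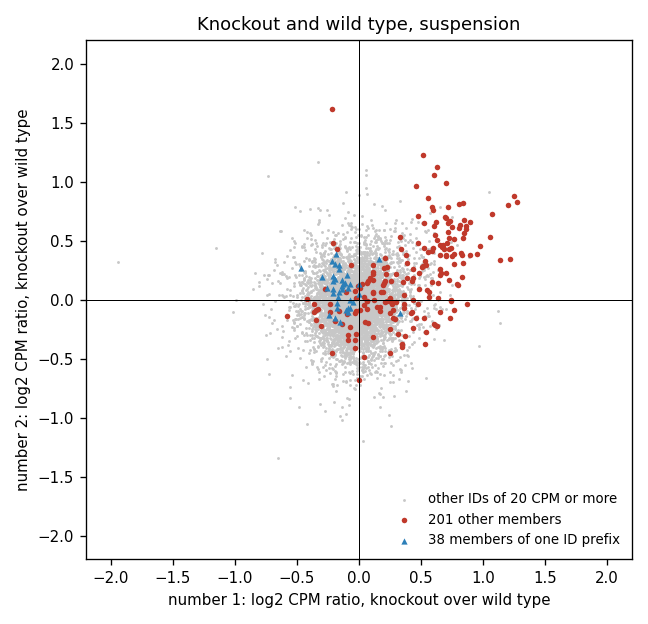
Log2 ratio of CPM between knockout and wild-type suspension, within number 1 (horizontal) and within number 2 (vertical); each point is an ID. The 201 members outside the shared ID prefix (red) extend into the upper right, with 122 higher in the knockout in both numbers, whereas 3 of the 38 members with that prefix (blue) do so.

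This direction was unevenly spread among the members. Of the 38 with the uc007p prefix, 3 were higher in the knockout in both numbers and 10 lower, while of the other 201 members 122 were higher and 23 lower. The difference between the groups was not tested. Beside it, the share of the 159 IDs picked by the mirrored rule for stroma changed in different ways. For number 1 it was 2.24% in wild-type suspension and 1.699% with the knockout, and for number 2 it was 3.01% and 3.47%. The part of attached cells in the suspension libraries' genotype difference was not tested.

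In stroma the members showed no called difference between the genotypes. By edgeR's quasi-likelihood test 0 of 239 were called, as were 0% of all tested IDs, with 1 member at an unadjusted p under 0.05 against 0.423% of all. DESeq2 called 0, with 1 at that level against 0.0591% of all, and limma with voom 0, with 0 against 0.384%. The median log2 difference of the members was 0.05, against -0.004 over all tested IDs. The members' median was -0.16 without knockout library a and -0.14 without wild-type replicate 2. It was 0.25 without wild-type replicate 1 and 0.18 without knockout library b. Both knockout libraries were above both wild-type libraries for 16 members and below them for 17, near the backgrounds of 7.67% and 9.2%. For 60 of the 239 members the 95% interval lay within 2-fold, against 55.3% of all tested IDs.

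The ratio between the fractions was compared between genotypes as an interaction. edgeR's test called 0 of 239 members and 0% of all tested IDs, with 0 members at an unadjusted p under 0.05 against 0.453% of all. DESeq2 and limma with voom called 0, with 1 and 0 members at that level, against 0.0788% and 0.473% of all tested IDs. The fitted ratio was larger in the knockout for 168 members and larger in wild type for 71, with a median log2 difference of 0.20. Over all tested IDs it was larger in the knockout for 50.0%, with a median of 0.00. The members' median was negative, between -0.10 and -0.00, without wild-type suspension replicate 1, knockout suspension replicate 2, wild-type stroma replicate 1 or knockout stroma library b. Without any one of the other libraries it was 0.31 to 0.53. Leaving out a suspension library also left the replicate numbers unbalanced between the genotypes. The 95% interval lay within 2-fold for 15 of the 239 members, against 24.4% of all tested IDs.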

How the data were processed

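The authors deposited 1 table of raw whole-number counts of footprints of 28 to 31 nucleotides per UCSC known-gene ID, per the file headers and the labels' protocols. Reads were aligned with Bowtie to mm9, per the submitters' processing notes. The counting tool, transcript set, strand setting and handling of multiply matching reads were not given in the sources used here. No matched RNA libraries were used here. IDs were not paired with names, so no sequence, coordinate or marker is given, and planned marker lists were not tested.

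Of the columns, 6 matched 1 sample each and 2 shared a header. CPM used column totals. Genotypes were compared by the quasi-likelihood test of edgeR 4.0.16 (R 4.3.3) on the counts. filterByExpr (minimum count 10) left 10157 IDs, including all 239 members. The fit took TMM factors, a mean for each of the 4 groups and all 8 libraries, with no replicate block. Benjamini-Hochberg adjustment covered all tested IDs, and calls were made at 0.05. Standard errors were derived from the F statistic and are approximate. DESeq2 1.42.0 and limma 3.58.1 were alternatives. On simulated counts with the spread of this fit, the test called 17% of 100 IDs changed 2-fold and 84% of 100 changed 4-fold. The changed IDs were drawn from those with larger mean counts, and no difference between fractions or replicate numbers was simulated. These rates were not measured for the members. A lack of calls therefore does not show that levels were equal. The members and lists were chosen with earlier results of these data known. Named IDs were the member of highest level, that of largest ratio, and that of lowest p in each direction between genotypes in suspension. Other members are described by rank.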

Additional observations from a re-analysis of the deposited data

How the results depend on the processing

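The size of the list followed its ratio threshold, with 815 IDs at a ratio of 2 and 69 at a ratio of 8, against 239 at 4. Without one library each, it held 213 to 261. The members' mean share of suspension counts was 10.5% and of stroma counts 1.87%. It became 8.72% and 1.46% with TMM-scaled sizes, 20.2% and 5.41% at a ratio of 2, and 1.27% and 0.110% at a ratio of 8. Leaving out one library each gave 10.2% to 12.5% in suspension and 1.78% to 2.39% in stroma. The median log2 difference between the fractions lay between 1.95 and 2.52 in wild type and between 2.19 and 2.65 in the knockout without one library each. The fitted value of uc008wmr.1 in the knockout was 4.81, against 4.07 without stroma library a and 9.17 without library b, which held all its knockout stroma counts. In stroma and for the interaction, 0 members were called under every alternative run. In suspension 0 were called in every alternative run except one. With the replicate block on the 4 suspension libraries, 64 of the 239 members were called, all higher in the knockout. In all, that fit called 110 of 9868 tested IDs. That fit leaves 1 residual degree of freedom per ID. In counts simulated at the spread of the fit without the block, 27.7% of its calls were unchanged IDs (49, against 128 changed). At a smaller spread the share was 16.8% (40, against 198 changed). Both shares exceed what the threshold of 0.05 allows, but neither simulation was repeated. The block fit was not simulated at its own spread, so the share of unchanged IDs among its 64 calls is not known. In it, uc007idj.2 had a log2 difference of 0.94 and an edgeR adjusted p of 4.59e-10, against 0.9754 to 1.00 in the other fits. The replicate block fitted to all 6 libraries with a number called 0 of 10131 IDs. At an unadjusted edgeR p under 0.05 it had 56 members, against 2.71% of all IDs tested in it. The labels do not say that numbers pair libraries. No paired analysis was possible for stroma or the interaction, because the knockout stroma columns carry no number. The difference of uc008zos.2 between the genotypes became 0.0793 without wild-type suspension replicate 2, and lay between -0.67 and 0.0793 without one library each. The causes of these changes were not tested, and leaving out a suspension library left the replicate numbers unbalanced between the genotypes. The counts within replicate numbers with TMM-scaled sizes and without the members of the shared prefix were added after the data were seen, and stayed within 1.5 times. A fit of the interaction to fewer groups was not run, since it needs all 4 groups.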
